A study of Mus musculus with 2 samples.

Results

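The genes described here are 10 subunits of a pair of chromatin complexes, followed through the cell classes of mouse bone marrow in a control and a MYC-expressing library. They were taken by symbol from the list of measured features, and all 10 of 10 were found among 32286 features. The list was drawn up because Ezh2 and Smarca4, of its 10 genes, differed most between the libraries in the B lineage. The control and MYC values in B cells are therefore given as a description of what chose them. Marrow cells of the control had the genotype Mx1Cre+/-;Rosa26+/+ and those of the MYC sample Mx1Cre+/-;Rosa26LSL-MYC/LSL-MYC. Both carry 1 copy of Cre under the interferon-inducible Mx1 promoter, and the MYC genotype adds MYC at both Rosa26 alleles behind a stop signal flanked by the sites at which Cre cuts. The study set out to compare expression across marrow cells once stem cells overexpress MYC. Age, sex, the number of animals and any inducing treatment are not given in the sources used here. There was 1 library per genotype, so genotype, animal and library preparation cannot be told apart, and no test between genotypes was possible.

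Polycomb repressive complex 2, or PRC2, places methyl groups on lysine 27 of histone H3 and keeps silenced genes silent. EZH2 or its paralogue EZH1 is the enzyme, EED reads the mark and boosts the enzyme, SUZ12 holds the complex together, and JARID2 is an accessory subunit that helps recruit it. SWI/SNF, also called BAF, slides or evicts nucleosomes to open DNA. SMARCA4 (BRG1) or its paralogue SMARCA2 (BRM) is the ATPase motor, SMARCB1 and SMARCC1 are core subunits, and ARID1A defines the canonical form of the complex. In lymphocyte development EZH2 is known to be abundant in dividing precursors, where it takes part in immunoglobulin heavy chain rearrangement, and SMARCA4 is known to open B-lineage genes.

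In GENCODE annotation of build GRCm38 the protein-coding genes Ezh2 (chr6:47530139-47595341), Ezh1 (chr11:101191115-101226463) and Arid1a (chr4:133679008-133756769) lie on the minus strand, and Smarca4 (chr9:21616169-21704230) and Smarca2 (chr19:26605050-26778322) on the plus strand. The promoter sequences of both catalytic pairs are shown because the members of each pair had unlike patterns over the marrow classes. They are RefSeq sequences of build GRCm38.p6, and all 10 genes matched at least 1 RefSeq promoter. Starts below are those of RefSeq, which lie within 100 bases of the GENCODE gene start for 6 of the 10. They lie 110 bases inside the GENCODE gene for Smarca2, 311 for Ezh2, 1300 or more for Jarid2 and 14316 for Smarcc1. Only bases outside annotated exons are printed, 5′ to 3′ on the strand of the gene. For Ezh2 (chr6:47595059-47595183, minus strand, 153 to 29 bases before the RefSeq start and intronic in the GENCODE gene) and Ezh1 (chr11:101226464-101226713, minus strand, the 250 bases before the start), capitals mark the CCAAT box on either strand, spelled CCAAT or ATTGG. For Smarca4 (chr9:21615919-21616168, plus strand, the 250 bases before the start) and Smarca2 (chr19:26604910-26605049, plus strand, 250 to 111 bases before the start), capitals mark the GC box on either strand, spelled GGGCGG or CCGCCC.
Ezh2: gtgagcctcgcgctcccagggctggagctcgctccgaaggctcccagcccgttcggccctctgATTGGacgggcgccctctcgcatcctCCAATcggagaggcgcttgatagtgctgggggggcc
Ezh1: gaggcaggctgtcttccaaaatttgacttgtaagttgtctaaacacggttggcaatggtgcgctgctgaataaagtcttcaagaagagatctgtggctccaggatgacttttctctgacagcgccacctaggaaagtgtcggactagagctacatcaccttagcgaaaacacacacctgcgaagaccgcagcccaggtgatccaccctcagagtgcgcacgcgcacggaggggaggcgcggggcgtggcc
Smarca4: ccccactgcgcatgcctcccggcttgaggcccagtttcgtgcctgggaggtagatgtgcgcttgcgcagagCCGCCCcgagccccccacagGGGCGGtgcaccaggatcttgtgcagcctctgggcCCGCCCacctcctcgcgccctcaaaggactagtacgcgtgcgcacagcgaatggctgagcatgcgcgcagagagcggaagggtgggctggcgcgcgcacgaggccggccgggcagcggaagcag
Smarca2: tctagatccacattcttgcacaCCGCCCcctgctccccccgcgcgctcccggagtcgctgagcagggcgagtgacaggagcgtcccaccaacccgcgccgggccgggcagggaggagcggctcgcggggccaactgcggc

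The Ezh2 window of 250 bases before the RefSeq start held 3 CCAAT boxes, of which 2 lie in the printed stretch, and the Ezh1 window held 0. Among the other members, Suz12 and Jarid2 held this box, and 33.8% of all 32851 RefSeq promoters of the same length did. Smarca4 held 3 GC boxes and Smarca2 held 2, of which 1 lies in the printed stretch. The GC box was present in 7 of the 10 members and in 32.7% of all promoters. The E-box CACGTG, the sequence that MYC with MAX is known to bind, was in 0 of the 10 member windows and in 6.02% of all promoters. A match or its absence describes these letters in this window only.

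The control library held 14903 cells and the MYC library 12540 after filtering, with median depths of 5343 and 6016 unique molecular identifiers (UMIs, 1 per captured transcript molecule) per cell. Cells were clustered and named from marker genes, so that every class name below stands for cells like that type. A level is the sum of a gene's UMIs in a class, scaled to 1000000 UMIs of that class (CPM), and its interval is an exact 95% Poisson interval that covers counting error only. Reads come from transcript 3′ ends, so levels of different genes are not compared. A level is a share of a class's UMIs, and classes differ in depth, so it is no count of molecules per cell. The 2 libraries shared 97 barcode sequences. Unnamed clusters held 19.9% of control and 24.0% of MYC cells, of which those of very low depth made 17.4% and 22.0% of all cells and the others had leading genes that did not mark 1 class. One mature neutrophil cluster came mostly from the control library (2440 against 231 cells), another mostly from the MYC library (162 against 1671), and macrophages numbered 19 and 613, so macrophages are not compared. The MYC transgene feature had 0 UMIs in the 14903 control cells and 289 in the MYC cells, of which 6 were in the B lineage. That feature is caught in few cells and does not say which cells express the transgene.

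Ezh2, the main H3K27 methyltransferase of dividing cells, was highest in control B progenitors at 486 CPM. Next came early erythroid cells at 252 CPM and the stem and multipotent progenitor class at 171 CPM, and the intervals of these 3 classes did not overlap their neighbours in the order. Granulocyte progenitors (135 CPM), monocytes (132 CPM) and basophil or mast cells (124 CPM) had overlapping intervals. The lowest levels were in late erythroid cells (25.9 CPM), plasma cells (23.3 CPM) and mature neutrophils (18.8 CPM), whose intervals also overlapped. Within each differentiation path the level was therefore high in precursors and low at the end: from granulocyte progenitors through immature neutrophils (91.0 CPM) to mature neutrophils, and from B progenitors through mature B cells (77.9 CPM) to plasma cells.

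Ezh1, the paralogue typical of resting cells, ran in another order. Its highest control level was in late erythroid cells at 59.3 CPM, followed by T or NK cells at 38.8, mature neutrophils at 37.4 and mature B cells at 35.8 CPM, the last 3 with overlapping intervals. It was at 20.03 CPM in B progenitors, 12.2 CPM in early erythroid cells and 9.67 CPM in plasma cells. Over 28 points, each a class of at least 50 cells in 1 library, Ezh1 and Ezh2 levels on the log2(CPM + 1) scale had a Pearson r of -0.27. The points share libraries and depth, so this and the correlations below are descriptions.

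Suz12, the scaffold of PRC2, followed Ezh2 over these points with r = 0.90. It was highest in early erythroid cells (237 CPM) and B progenitors (213 CPM) of the control library. Eed, the subunit that reads the mark, varied less, from 8.03 CPM in late erythroid cells to 60.1 CPM in basophil or mast cells. Jarid2, the accessory subunit, stood apart with 249 CPM in the 59 control megakaryocytes and 126 CPM in the 61 of the MYC library. Its next level was in monocytes, at 84.8 and 77.2 CPM.

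Smarca4, the SWI/SNF motor, was at 746 CPM in control B progenitors. The next class, stem and multipotent progenitors, was at 155 CPM, with no overlap of intervals. Outside the B progenitors the classes from megakaryocytes (121 CPM) to mature B cells (93.5 CPM) formed a series of overlapping intervals. Smarca4 was low in plasma cells (44.8 CPM), mature neutrophils (23.5 CPM) and late erythroid cells (11.7 CPM). Smarca2, the other motor, was highest in stem and multipotent progenitors at 98.2 CPM. Mature neutrophils (74.1 CPM) and mature B cells (73.7 CPM) came next, while B progenitors (20.3 CPM) and early erythroid cells (11.7 CPM), the classes rich in Ezh2, were among the lowest.

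Smarcc1, a core subunit, was highest in stem and multipotent progenitors (249 CPM) and B progenitors (234 CPM), which overlapped. It was lower at each step of the neutrophil path, with 109 CPM in granulocyte progenitors, 49.3 CPM in immature and 12.7 CPM in mature neutrophils, none overlapping the next of the 3. Smarcb1, the other core subunit, had the same order of classes in outline, with r = 0.95 to Smarcc1 over the 28 points. Arid1a, the subunit of canonical BAF, was the most even of the abundant members, with control levels from 191 CPM in B progenitors to 90.8 CPM in early erythroid cells over 12 classes. Only plasma cells (57.5 CPM) and late erythroid cells (27.2 CPM) lay below that range.

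**Figure D1:**
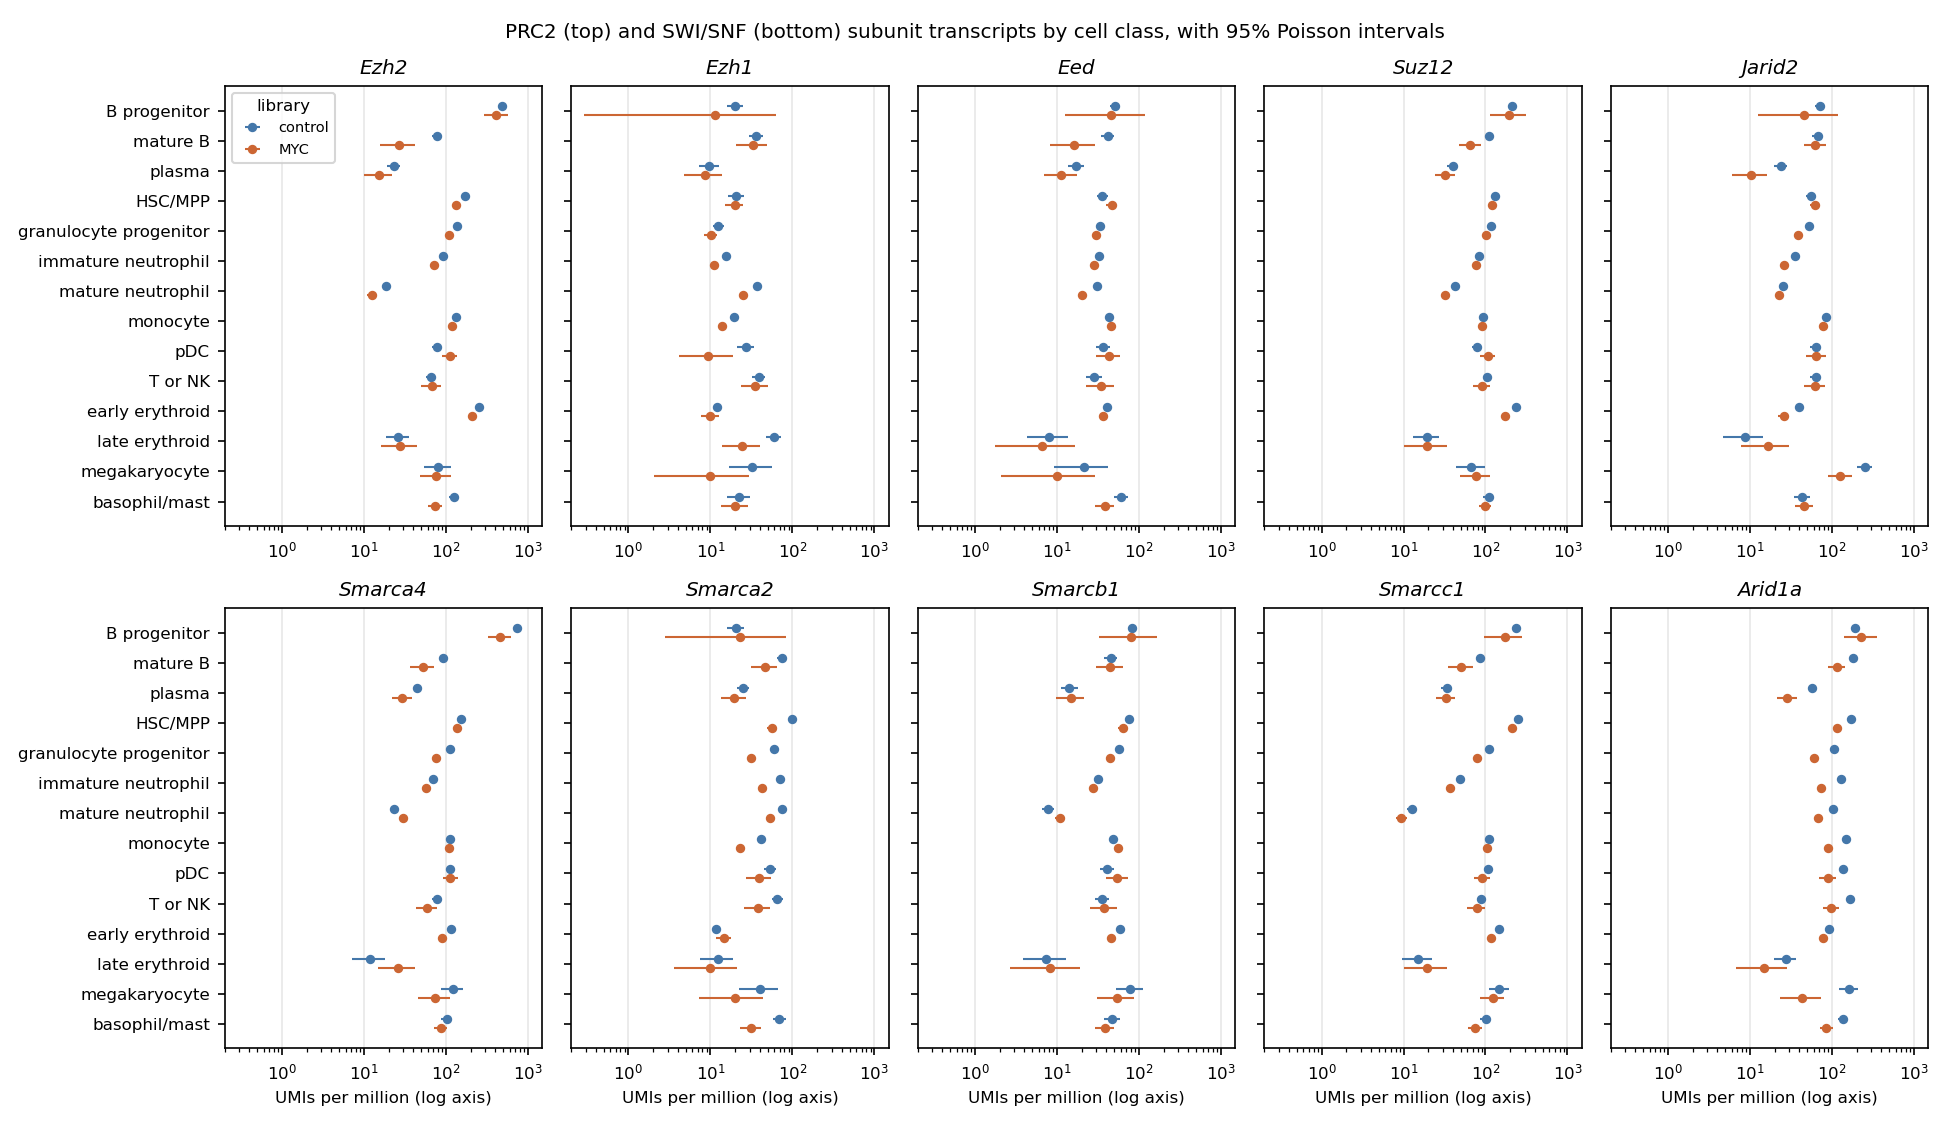
Level of each member (CPM, log axis, with 95% Poisson intervals) in each cell class in the control and MYC libraries; HSC/MPP stands for stem and multipotent progenitors and pDC for plasmacytoid dendritic cells. Ezh2 and Smarca4 peak in control B progenitors at 486 and 746 CPM. Smarca2 is among its lowest levels there, at 20.3 CPM, and Ezh1 is at 20.03 CPM, within its middle range.

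Genes with levels most like Ezh2 over the 28 points were taken by rule from the 5547 genes whose mean reached 20 CPM. They included Pola1 (r = 0.96), a subunit of the DNA polymerase that primes replication, Smc3 (0.95), a cohesin subunit, Uhrf1 (0.95), which maintains DNA methylation at replication, and Eri1 (0.95), an exonuclease that acts on histone mRNA. For Smarca4 they were Xrcc6 (0.93), the Ku70 subunit of DNA end joining, Cbx1 (0.91), a heterochromatin protein, Cpsf2 (0.89) and Cstf2 (0.89), both of mRNA 3′ end processing, and Mcrs1 (0.89). The summed level of a list of 28 proliferation genes had r = 0.90 with Ezh2, 0.76 with Suz12, 0.63 with Smarca4, 0.29 with Arid1a, -0.14 with Smarca2 and -0.33 with Ezh1.

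In the B lineage as a whole, Ezh2 was at 188 CPM in the control library (2208 UMIs in 1243 cells) and 32.1 CPM in MYC cells (81 UMIs in 247 cells), 5.87-fold lower. The log2 ratio of MYC to control was -2.55 (95% counting interval -2.89 to -2.23). Smarca4 was at 286 CPM in the control library and 50.3 CPM in MYC cells (3358 and 127 UMIs), a log2 ratio of -2.51 (-2.78 to -2.25). Smarcc1 had a ratio of -1.40, Eed -1.30, Suz12 -1.28, Arid1a -1.17, Jarid2 -0.97 and Smarcb1 -0.81. Among the 10 members 8 were lower by at least 1.5-fold, as were 43.2% of the 9610 genes with at least 50 UMIs in the B lineage over both libraries. Since the list was chosen on this contrast, nothing is read from that count. Smarcb1 was the member just inside the 1.5-fold limit, and Smarca2 (-0.41, -0.80 to -0.03) and Ezh1 (-0.36, -0.90 to 0.14) were just outside it. Relative to the all-gene median of -0.44, Smarca2 stood at 0.03 and Ezh1 at 0.08. With median-of-ratios scaling both turned above 0, at 0.07 and 0.11.

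The makeup of the B lineage differed strongly between the libraries. B progenitors numbered 481 in the control library but 18 in the MYC library, mature B cells 509 and 140, and plasma cells 253 and 89. B progenitors supplied 32.8% of B-lineage UMIs in control and 3.47% in MYC cells, and plasma cells 43.2% and 69.8%. When the MYC stages were weighted by their UMI shares in the control, Ezh2 was at 188 CPM in control and 148 CPM in MYC cells, a log2 ratio of -0.35 (-0.79 to 0.09). The weighted ratio of Smarca4 was -0.71 (-1.10 to -0.32). At this common stage mix 1 of 10 members, Smarca4, was lower by at least 1.5-fold, against 24.8% of all genes. The weighted values for B progenitors rest on 18 MYC cells. With B progenitors left out of both libraries, a comparison chosen after seeing the data, Ezh2 was at -1.22 and Smarca4 at -0.80, and 7 of 10 members were lower by 1.5-fold against 26.1% of genes. Mature B and plasma cells still differed in their shares there. With both weighted as in the control, Ezh2 was at -1.14, Eed at -0.98, Arid1a at -0.77 and Smarca4 at -0.73, and these 4 of 10 were lower by 1.5-fold against 20.2% of genes.

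**Figure D2:**
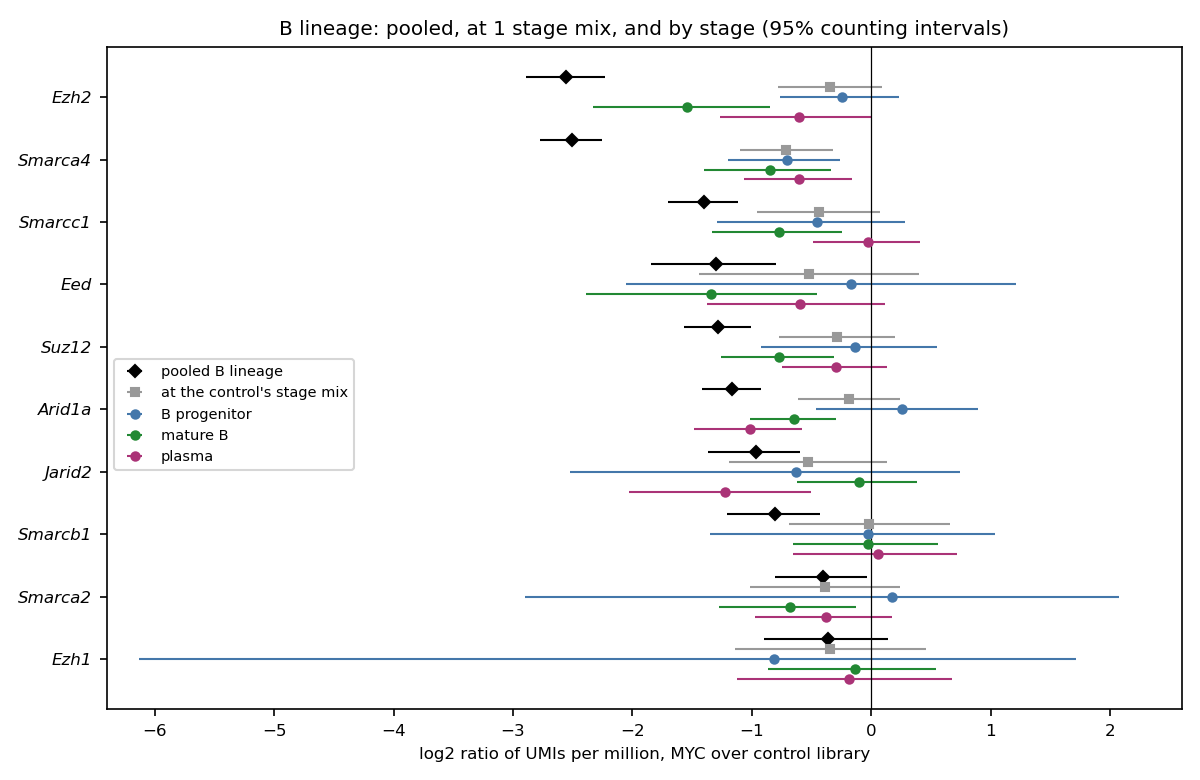
Log2 ratio of MYC to control with 95% counting intervals for each member, for the pooled B lineage, for the B lineage at the control's stage mix, and for each stage. The pooled Ezh2 value of -2.55 lies well below its value at 1 stage mix, -0.35, and the Ezh1 and Smarca2 values differ little between these measures.

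In B progenitors, where V(D)J recombination takes place, Ezh2 was at 486 CPM in the control cells, against 411 CPM in the 18 MYC cells (36 UMIs), with an interval of the log2 ratio of -0.76 to 0.23. These 36 UMIs lay in 9 of the 18 cells, and 12 of them in 1 cell. Smarca4 was at 746 and 456 CPM (2867 and 40 UMIs), a log2 ratio of -0.71 (-1.20 to -0.26), and was the 1 member of 10 whose interval excluded 0. Arid1a was at 191 and 228 CPM, with a ratio of 0.25 (-0.47 to 0.89). In all, 3 of 10 members were lower by 1.5-fold (Smarca4, Jarid2 on 4 MYC UMIs and Ezh1 on 1), near the 32.3% of all genes. The MYC cells of this stage were progenitors by their markers, with the surrogate light chain gene Vpreb1 at 673 CPM against 199.5 CPM in the control and Rag1, a recombinase subunit, at 103 against 152 CPM.

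In mature B cells Ezh2 was at 77.9 CPM in control (220 UMIs) and 26.7 CPM in MYC cells (18 UMIs), a log2 ratio of -1.55 (-2.33 to -0.85). Eed was at 41.4 and 16.3 CPM (-1.35), Smarca4 at 93.5 and 51.9 CPM (-0.85, -1.40 to -0.34), and Arid1a at 179 and 114 CPM (-0.65, -1.01 to -0.30). Suz12, Smarcc1 and Smarca2 were also lower by at least 1.5-fold, which made 7 of 10 members against 27.8% of genes. With median-of-ratios scaling only Ezh2 (-1.26) and Eed (-1.06) of these stayed past 1.5-fold. By that scaling Smarca4 was at -0.57, Suz12 and Smarcc1 at -0.49, Smarca2 at -0.40 and Arid1a at -0.36. Jarid2 (-0.10), Ezh1 (-0.13) and Smarcb1 (-0.03) had intervals that spanned 0. The Ezh2 UMIs of the control were concentrated: 86 of 509 cells held them, and the 10 richest cells held 87 of the 220, or 39.5%. In the MYC library the 18 UMIs were spread over 17 of 140 cells.

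Plasma cells, which secrete antibody and seldom divide, had low levels of every member as a share of their UMIs. Their median depth in the control was 20994 UMIs per cell, against 4485 in mature B cells. A low share there need not mean few molecules per cell. Ezh2 was at 23.3 and 15.3 CPM, with an interval of the log2 ratio of -1.27 to 0.01. Its UMIs were concentrated, with 62 of 118 in the 10 richest control cells and 20 of 27 in the 10 richest MYC cells. Arid1a was at 57.5 and 28.4 CPM (-1.02, -1.48 to -0.58), Jarid2 at 23.9 and 10.2 CPM (-1.23, -2.03 to -0.51) and Smarca4 at 44.8 and 29.5 CPM (-0.60, -1.07 to -0.16). These 3 were the members whose interval excluded 0, and with Ezh2 and Eed they made 5 of 10 lower by 1.5-fold against 19.9% of genes. The Smarca4 value turned to 0.24 when each cell was given equal weight. Other genes also differed in this class. Of the 9 monocyte markers Ly6c2 was at 333 CPM in control and 3040 CPM in MYC cells, while the other 8 summed to 151 and 89.6 CPM. The J chain gene was at 21214 and 10411 CPM. The part of these differences in the member values was not tested.

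RNA from neutrophils, the most abundant cells of the marrow, was found in B cells of both libraries. The 7 neutrophil genes of a list made 1.25% of B-lineage UMIs in control and 2.09% in MYC cells, and 1.32% and 3.89% in B progenitors. None of the 7 was at 0 in either library. With S100a8 and S100a9 taken to come wholly from free RNA, that RNA would make 9.77% of B-lineage UMIs in control and 12.2% in MYC cells, and 10.1% and 22.3% in B progenitors. It was subtracted as RNA with the makeup of all kept cells of the library. The pooled Ezh2 ratio was then -3.00 and that of Smarca4 -2.70. At the control's stage mix, which rests on the 18 MYC progenitors, they were -0.18 and -0.56. By stage, the B progenitor values were then -0.07 for Ezh2 and -0.53 for Smarca4, those of mature B cells -1.83 and -0.89, and those of plasma cells -1.19 and -0.69.

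Ezh2 follows the cell cycle in many tissues, so cells were divided at 5 UMIs of the 28 proliferation genes per 10000. In mature B cells the proliferation genes summed to 1861 CPM in control and 685 CPM in MYC cells, although 63.9% and 61.4% of cells were at or above this limit. At or above it, Ezh2 was at 107 CPM in 325 control cells and 23.0 CPM in 86 MYC cells, a log2 ratio of -2.21 (-3.36 to -1.26). Below it, Ezh2 was at 24.4 CPM in 184 control cells and 31.8 CPM in 54 MYC cells, a ratio of 0.38 (-0.91 to 1.54). With limits of 2 and 10 per 10000 the Ezh2 ratio below the limit ran from -0.10 to 1.71, so its sign depends on the limit. At or above those limits it ran from -2.16 to -1.84. Each side had 9 MYC UMIs of Ezh2, and the difference between the sides was not tested. The genes that set the limit differed between the libraries themselves, so a side need not hold like cells in both. Ezh2 in B cells also chose the list, so nothing is read from the split. Smarca4 had ratios of -1.10 (-1.84 to -0.43) at or above the limit and -0.27 (-1.19 to 0.56) below it. Arid1a had the other arrangement, with -0.36 (-0.80 to 0.05) at or above and -1.18 (-1.89 to -0.53) below. For both of these genes the intervals of the sides overlapped. Proliferation RNA also differed in the pooled B lineage, at 2995 and 684 CPM, and in B progenitors, at 6904 and 4142 CPM.

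Within the control B progenitors Ezh2 was at 523 CPM in cells at or above the limit and 182 CPM below it, whereas Smarca4 was at 755 and 667 CPM. The same split in other classes gave Ezh2 levels in control immature neutrophils of 118 and 15.5 CPM and in control monocytes of 162 and 22.3 CPM. In MYC immature neutrophils they were 89.1 and 11.8 CPM, and in MYC monocytes 140 and 16.8 CPM. In each of these classes the split within a library was larger than the difference between the libraries. In mature neutrophils, where the whole list was low, the control values were 21.1 and 16.6 CPM.

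**Figure D3:**
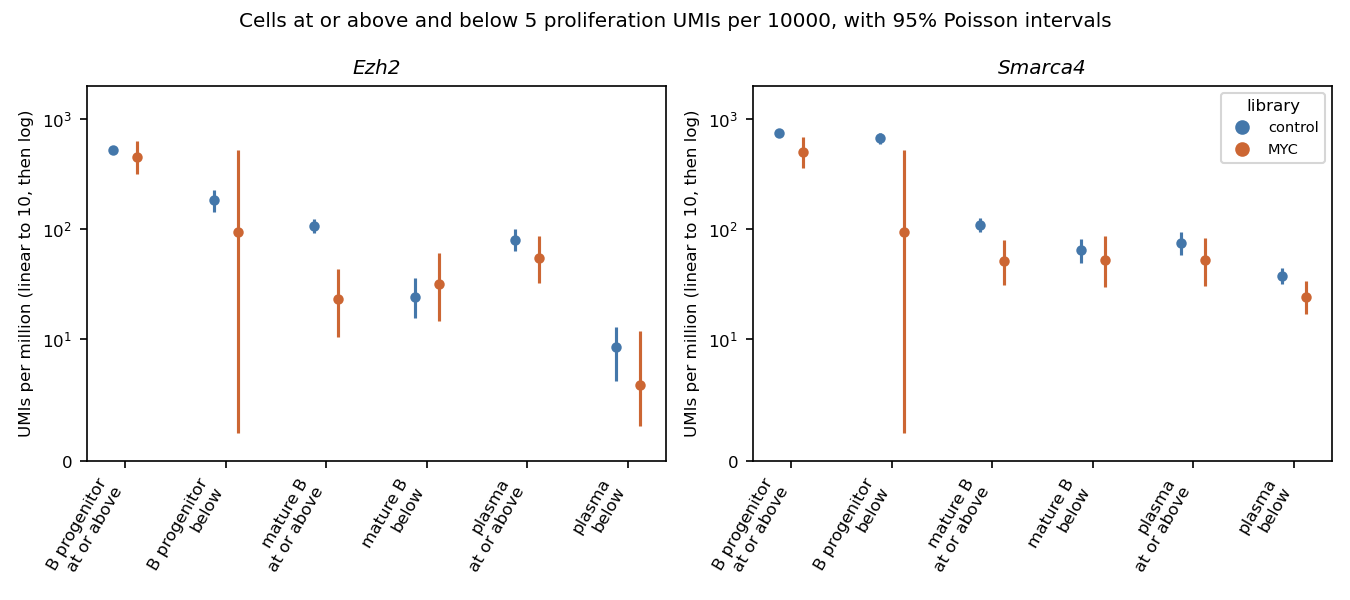
Level (CPM with 95% Poisson intervals, on an axis linear to 10 and logarithmic above) of Ezh2 and Smarca4 in B-lineage cells at or above and below 5 proliferation UMIs per 10000, by stage and library. In mature B cells Ezh2 is at 107 and 23.0 CPM (control and MYC) above the limit and at 24.4 and 31.8 CPM below it.

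Outside the B lineage Smarca2 (-0.80) and Arid1a (-0.74) had the lowest median log2 ratios of the 10 members over 9 classes that do not overlap and had at least 100 cells in each library. The medians of Ezh2 and Smarca4 were -0.32 and -0.23. The 9 classes are stem and multipotent progenitors, granulocyte progenitors, immature and mature neutrophils, monocytes, T or NK cells, early and late erythroid cells, and basophil or mast cells. In single classes other members were further from 0 than this pair, as with Ezh1 in late erythroid cells and Jarid2 in early erythroid cells. These comparisons use the same control library and the same MYC library in every class, so a like value in several classes is no replication. Arid1a was at 172 CPM in control and 114 CPM in MYC stem and multipotent progenitors, a log2 ratio of -0.59 (-0.78 to -0.41). In granulocyte progenitors it was at 106 and 60.1 CPM (-0.82), in immature neutrophils at 127 and 73.6 CPM (-0.78), and in mature neutrophils at 102 and 67.3 CPM (-0.60, -0.71 to -0.49). Monocytes had 148 and 88.5 CPM (-0.74, -0.83 to -0.66), T or NK cells 165 and 97.2 CPM (-0.77), basophil or mast cells 135 and 85.5 CPM (-0.66) and plasmacytoid dendritic cells 138 and 88.7 CPM (-0.63). The smallest difference was in early erythroid cells, at 90.8 and 78.2 CPM (-0.22, -0.36 to -0.08).

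Over these 9 classes Arid1a was below 0 in 9 and lower by at least 1.5-fold in 8. Its interval was below 0 in 8, the exception being late erythroid cells with 44 and 9 UMIs. Mature neutrophils are among the 8 lower by 1.5-fold, but their single clusters were at -0.50, -0.48 and -0.54, each within it. Of 1868 genes with at least 50 UMIs in each of the 9 classes, 1.18% were lower by 1.5-fold in at least 8, and 16.8% were below 0 in all 9. Over the 23 single clusters with at least 50 cells in each library, B cells and unnamed clusters among them, Arid1a was below 0 in 23 and its interval excluded 0 in 20, with a median of -0.66. It was lower on both sides of the proliferation limit in immature neutrophils (-0.79 and -0.78), mature neutrophils (-0.74 and -0.48) and monocytes (-0.73 and -1.02), each with an interval below 0. With median-of-ratios scaling the Arid1a ratio was below 0 in all 9 classes but past 1.5-fold in 3: monocytes (-0.59), T or NK cells (-0.68) and late erythroid cells (-1.26). Of the 1868 genes 9.69% were lower in at least 3 classes by that scaling. The other values ran from -0.58 in immature neutrophils through -0.37 in mature neutrophils to -0.15 in early erythroid cells.

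Smarca2 was at 98.2 CPM in control and 56.3 CPM in MYC stem and multipotent progenitors, a log2 ratio of -0.80 (-1.06 to -0.55). In granulocyte progenitors it was at 59.9 and 31.5 CPM (-0.93), in monocytes at 41.4 and 23.0 CPM (-0.85), in T or NK cells at 65.6 and 37.7 CPM (-0.80) and in basophil or mast cells at 69.1 and 31.3 CPM (-1.14). Late erythroid cells had 20 and 6 UMIs, too few for a call. In the other 8 classes Smarca2 was below 0 in 7 and lower by 1.5-fold in 6. Of 5629 genes with at least 50 UMIs in each of these 8 classes, 45.3% were below 0 in at least 7 and 3.70% lower by 1.5-fold in at least 6. With median-of-ratios scaling the value of immature neutrophils (-0.53) came within 1.5-fold, which left 5 of the 8, against 1.51% of genes lower in as many. Early erythroid cells were the exception, at 11.7 and 14.6 CPM, a ratio of 0.31 (-0.04 to 0.65). Single clusters gave 22 of 23 below 0, with the interval excluding 0 in 12.

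Arid1a and Smarca2 were the only members lower by 1.5-fold in 5 of these classes. They made 2 of 10 in stem and multipotent progenitors (Smarca2 and Arid1a) against 12.4% of genes, and the same pair in granulocyte progenitors against 25.8%, immature neutrophils against 17.5%, monocytes against 16.7% and T or NK cells against 15.2%. Mature neutrophils had 3 (Ezh1, Eed and Arid1a) against 22.2% and early erythroid cells 1 (Jarid2) against 15.5%. Basophil or mast cells had 4 (Ezh2, Eed, Smarca2 and Arid1a) against 20.7%. Mature neutrophil clusters differ in size between the libraries. In the cluster with many cells from both, Ezh1 was at -0.32, Eed at -0.48 and Arid1a at -0.50, each within 1.5-fold. With median-of-ratios scaling Ezh2, Ezh1, Eed and Jarid2 were lower by 1.5-fold in 0 of the 8 classes other than late erythroid cells. In late erythroid cells 3 members reached 50 UMIs, and 2 of them (Ezh1 and Arid1a) were lower, against 18.3% of genes.

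**Figure D4:**
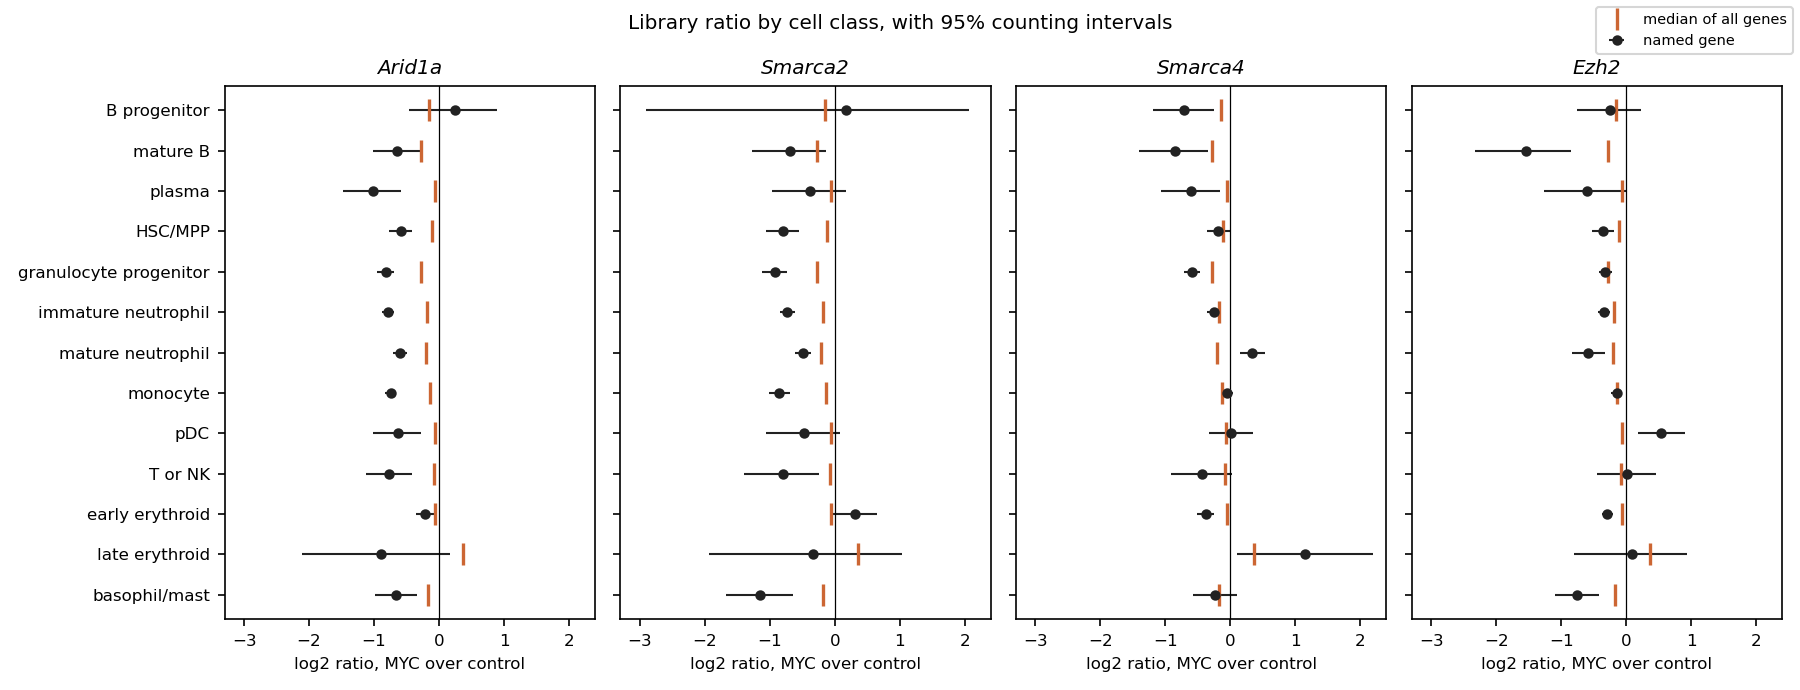
Log2 ratio of MYC to control with 95% counting intervals for Arid1a, Smarca2, Smarca4 and Ezh2 in each class, with the median of all genes in that class as a bar. Arid1a lies below the median of all genes in each class drawn except B progenitors, at -0.82 in granulocyte progenitors and -0.22 in early erythroid cells.

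Ezh2 itself had ratios nearer 0 outside the B lineage than its -1.55 in mature B cells, which restates how the list was chosen. It was at 171 and 134 CPM in stem and multipotent progenitors (-0.36, -0.53 to -0.18), 135 and 109 CPM in granulocyte progenitors (-0.32), 252 and 207 CPM in early erythroid cells (-0.29) and 132 and 119 CPM in monocytes (-0.15). Basophil or mast cells had the largest of these differences, 124 and 73.7 CPM (-0.75, -1.10 to -0.41). In plasmacytoid dendritic cells, of which there were 282 and 77, Ezh2 was higher in the MYC library, at 77.0 and 112 CPM (0.54, 0.18 to 0.90), and so was Suz12, at 78.1 and 108 CPM (0.46, 0.09 to 0.82). The proliferation genes summed there to 1883 and 2792 CPM, with 15 of 28 higher by 1.5-fold against 18.8% of genes and 0 lower, and their part in these values was not tested. Among the 23 single clusters the highest Ezh2 ratio was in an unnamed one led by H2-Eb1 and H2-Ab1, with 250 and 187 cells. Ezh2 was at 55.7 and 105 CPM there (0.91, 0.58 to 1.25). With median-of-ratios scaling the monocyte value was at 0. This scaling takes off an all-gene shift of -0.48 in the B lineage, -0.28 in mature B cells and -0.30 in granulocyte progenitors, so that every ratio there is higher by that amount.

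Smarca4 was at 114 and 76.0 CPM in granulocyte progenitors (-0.58, -0.71 to -0.46) and 116 and 89.2 CPM in early erythroid cells (-0.38). Monocytes had 113 and 109 CPM, with an interval that spanned 0 (-0.13 to 0.04). In mature neutrophils it was higher in the MYC library, at 23.5 and 29.7 CPM (0.34, 0.14 to 0.53). That class is made of clusters that differ in size between the libraries: within the 1 cluster with many cells from both, the ratio was 0.19 (-0.09 to 0.46), and in the cluster mostly of the MYC library it was 1.503, on 6 control UMIs. Smarcb1 in mature neutrophils was at 7.82 and 10.98 CPM (0.49, 0.16 to 0.82), and its interval spanned 0 in each of the 3 clusters. The control level overlapped that of late erythroid cells, 7.41 CPM (3.83 to 12.9), and was not told apart from background.

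For Jarid2, granulocyte progenitors had 53.0 and 38.1 CPM (-0.47, -0.65 to -0.30) and early erythroid cells 39.3 and 25.6 CPM (-0.62, -0.86 to -0.38). Stem and multipotent progenitors had 55.5 and 62.1 CPM, with an interval of -0.12 to 0.44. Eed was at 35.9 and 46.6 CPM in stem and multipotent progenitors (0.38, 0.05 to 0.71) and at 30.7 and 19.9 CPM in mature neutrophils (-0.62, -0.82 to -0.42). Ezh1 was below 0 in all 9 classes outside the B lineage, as were 16.8% of the 1868 genes, and in 23 of 23 single clusters, with the interval excluding 0 in 9. In mature neutrophils it was at 37.4 and 24.7 CPM (-0.60, -0.78 to -0.42). Its lowest ratios among classes with at least 50 of its UMIs were in plasmacytoid dendritic cells, at 26.8 and 9.46 CPM (-1.50, -2.77 to -0.45, on 8 MYC UMIs), and in late erythroid cells, at 59.3 and 24.5 CPM (-1.28, -2.17 to -0.48, on 15). Megakaryocytes, with 12 and 3 UMIs, were at -1.69 (-4.15 to 0.20). Under median-of-ratios scaling Ezh1 turned above 0 in mature B cells (0.15), stem and multipotent progenitors (0.06) and basophil or mast cells (0.03).

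Shares of cells with a UMI were compared after thinning each cell to 2000 UMIs. Smarca4 was then found in 69.6% of 450 control B progenitors, and in 84.2% of the 481 before thinning. In mature neutrophils Arid1a was found in 17.6% of 3616 control cells (exact 95% interval 16.4% to 18.9%) and 12.6% of 2942 MYC cells (11.4% to 13.9%), and before thinning in 32.6% and 28.6%. Late erythroid cells, which are losing their nuclear transcripts, had 3.31% and 3.03% for Arid1a after thinning, from 242 and 66 cells. The Ezh2 shares of mature neutrophils, 3.95% and 2.38%, were near the 2.89% of control late erythroid cells and are not read as expression.

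The balance of paralogues within a library does not depend on the scaling. For the methyltransferases, the ratio of Ezh1 to Ezh2 UMIs stood at 0.041 in control B progenitors, then 0.459 in mature B and 0.415 in plasma cells. It was 0.048 in early and 2.29 in late erythroid cells, and 0.092, 0.172 and 1.99 in granulocyte progenitors, immature and mature neutrophils. From B progenitors to mature B cells, and from granulocyte progenitors to immature neutrophils, the ratio was higher by more than the counting intervals. In mature neutrophils the Ezh2 share of cells was not told apart from background, so the ratios of mature neutrophils and late erythroid cells are given as UMIs and not read as a balance of enzymes. In the MYC library the neutrophil values were 0.093, 0.154 and 1.97, and the log2 change between libraries in mature neutrophils was -0.02 (-0.32 to 0.29). Mature B cells had 1.22 in the MYC library, a log2 change of 1.41 (0.45 to 2.37). Of 13 classes with at least 50 cells in each library the interval of the change lay above 0 in mature B cells alone. The mature B change rests on 18 MYC UMIs of Ezh2, a gene chosen for its B-lineage difference, so nothing is read from it. The interval lay below 0 in 3 classes, including plasmacytoid dendritic cells, where the ratio was 0.348 in control and 0.084 in MYC cells.

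For the ATPases, the ratio of Smarca2 to Smarca4 UMIs was 0.027 in control B progenitors and 0.788 in mature B cells, and it was 0.527, 1.03 and 3.15 in granulocyte progenitors, immature and mature neutrophils. The MYC library had 0.415, 0.735 and 1.78 in the neutrophil path. In mature neutrophils the log2 change was -0.83 (-1.05 to -0.60). Monocytes had 0.366 and 0.210 (-0.80), stem and multipotent progenitors 0.635 and 0.414 (-0.62) and basophil or mast cells 0.676 and 0.360 (-0.91). Of the 13 classes the interval lay below 0 in 6 and above 0 in 1, early erythroid cells, with 0.101 and 0.163 (0.69, 0.33 to 1.05). In B cells the ratio was 0.788 and 0.886 in mature and 0.559 and 0.654 in plasma cells, with overlapping intervals. Over the 23 clusters it was below 0 with its interval in 11 and above in 1.

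**Figure D5:**
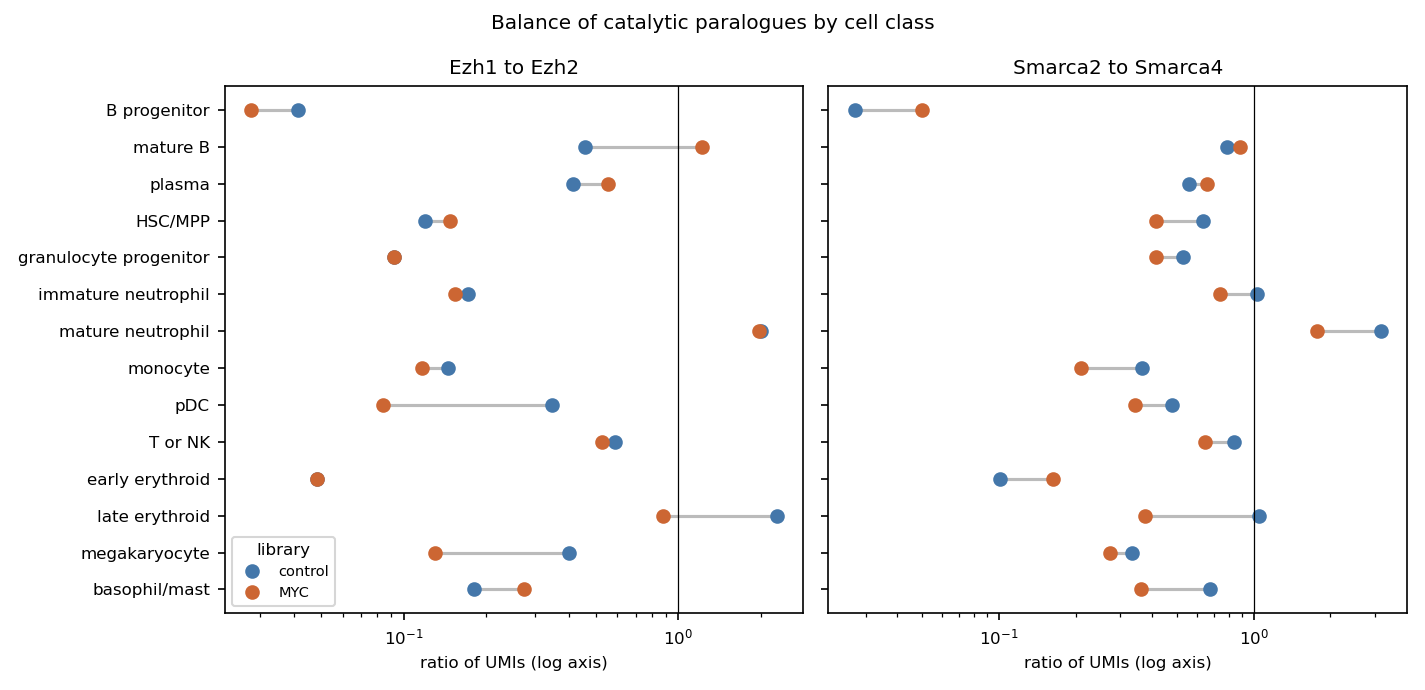
Ratio of Ezh1 to Ezh2 and of Smarca2 to Smarca4 UMIs (log axis) by class, with a point for each library and a grey line joining the pair. Of the classes drawn, mature neutrophils have the highest Smarca2 to Smarca4 ratio of the control library, 3.15, against 1.78 with MYC.

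Partners of the members in the same and related complexes were taken from lists. In the pooled B lineage, where 43.2% of all genes were lower by 1.5-fold, 6 of 8 PRC2 partners with enough UMIs were, with a median log2 ratio of -0.96. Mtf2, which brings PRC2 to CpG islands, was at 66.1 and 22.2 CPM (-1.58), and Phf19, of the same family, had 87 UMIs in control cells and 1 UMI in MYC cells (interval -9.55 to -1.71). Aebp2 was at -0.50 and Lcor at -0.22. At the control's stage mix 4 of 8 were lower, against 24.8% of all genes, and Mtf2 was at -0.95 and Lcor at 0.74. In mature B cells 3 of 7 partners were lower, against 27.8% of genes, with a median of -0.46 against -0.28 for all genes.

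Of 18 other SWI/SNF subunits 13 were lower and 1 was higher in the pooled B lineage, against 43.2% and 7.98% of all genes. Bcl7a, a BAF subunit first known from a B cell lymphoma translocation, was at 177 and 25.3 CPM (-2.81, -3.19 to -2.45) and Bicra at 37.1 and 8.32 CPM (-2.16). Bcl7c was at 38.5 and 38.0 CPM. At the control's stage mix 9 of 18 were lower, against 24.8%. Bcl7a was there at -1.13 and Bicra at -1.47, nearer 0 than the pooled values, as was Smarca4. The 1 that was higher was Phf10, a subunit of the PBAF form, at 18.8 and 56.6 CPM (1.59, 1.27 to 1.90).

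PRC1, the complex that binds the PRC2 mark, had 8 of 17 subunits lower by 1.5-fold in the pooled B lineage, against 43.2% of genes, with a median of -0.53 near the all-gene -0.44. Cbx6 was at -1.34 and Pcgf3 at -1.11, and Bmi1, known for stem cell self-renewal, was at 15.2 and 21.8 CPM (0.52, 0.06 to 0.97). At the control's stage mix 3 of 17 were lower, against 24.8% of genes, and 3 were higher. Cbx6 was there at -0.72, Pcgf3 at 0.04 and Bmi1 at 0.77. Among the enzymes that remove the H3K27 methyl mark or place acetyl groups there instead, 3 of 4 were lower: Ep300 (-1.24), Crebbp (-1.14) and Kdm6a (-0.98), while Kdm6b was at -0.58. At the stage mix 2 of 4 were lower. Of 18 other remodeller genes 14 were lower, led by Hells (-2.79), a remodeller of replicating cells, and Baz1b (-1.30), while Ino80 (-0.31) and Chd2 (-0.17) had intervals that spanned 0. At the control's stage mix 3 of these 18 were lower, below the 24.8% of all genes, with Hells at -1.42 and Baz1b at -0.37. In the pooled B lineage 28 of 28 proliferation genes were lower, from Cenpe (-2.71) and Bub1 (-2.68) to Gmnn (-1.10) and Tyms (-0.95). At the stage mix 18 of 28 were lower, with Cenpe at -1.42, Bub1 at -1.26, Tyms at -0.20 and Gmnn at 0.30. In stem and multipotent progenitors the counts were 2 of 8 PRC2 partners, 2 of 18 other SWI/SNF subunits, 5 of 18 PRC1 subunits, 1 of 4 of the H3K27 enzymes, 1 of 18 other remodeller genes and 6 of 28 proliferation genes, against 12.4% of all genes. Of the 7 neutrophil genes 6 were lower there, with a median of -1.14, and their part in these counts was not tested.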

How the data were processed

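Bone marrow cells of each genotype were captured with 10x Genomics 3′ v2 chemistry and sequenced on a NextSeq 2000, per the labels' protocols. The deposited values are raw UMI counts per gene and cell, which the authors made; the file headers name Cell Ranger 6.0.0. The submitters' processing notes name Seurat, GRCm38 and mm10. Whether counting used strand is not given in the sources used here, so reads shared with an antisense partner (Eed, Smarca2 and Smarcc1 have one among the measured features, and Ezh2, Suz12 and Jarid2 overlap annotated ones that are not) cannot be told apart. The control library held 131884603 UMIs in 17073 barcodes and the MYC library 110012176 in 14496.

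Cells with at least 500 UMIs, at least 200 genes and under 10% mitochondrial UMIs were kept. Scrublet called 0 doublets in the MYC library at its own threshold, so the control's threshold was used for both, a choice made after seeing the data, which removed 558 and 356 cells. Cells of both libraries were normalized to 10000, reduced to 2000 variable genes and 30 components without batch integration, and clustered with scanpy 1.11.5 (15 neighbours, Leiden resolution 1). Clusters were named from marker lists. A cluster whose median UMI count was under 0.2 of its library's was left unnamed, also set after seeing the data, as were clusters led by genes of another class or by none of their own markers. UMIs were summed per class and library. With 1 library per genotype no test was run: intervals are exact Poisson (levels), conditional binomial (ratios) or Clopper-Pearson (shares), all at 95%. Called means past 1.5-fold among genes that reached 50 UMIs over both libraries in the class. All-gene medians and likeness use log2(CPM + 1). The ratio script was tested on simulated data.

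The text names all members, the 2 highest and 2 lowest genes of each list in the B lineage, and the 5 genes most like Ezh2 and Smarca4. One gene that this rule picks is not reported here. Other genes named (markers of doubtful classes, breadth over classes) were chosen after their values were seen. The members and the gene lists were chosen with earlier results of these data known. Alternatives were other clusterings, filters, doublets kept, 2 scalings, a mean over cells, subtraction of free RNA and other limits. Others were the B lineage without progenitors and, over classes, counts without mature B cells. Free RNA took the makeup of all kept cells of its library, in an amount set by S100a8 and S100a9.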

Additional observations from a re-analysis of the deposited data

Results flagged for a closer look

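Over the 10 classes that do not overlap and had at least 100 cells in each library, 3 members had intervals on opposite sides of 0 in different classes, each class being 1 library against 1. None of these differences between classes was tested. Plasmacytoid dendritic cells, with 77 MYC cells, were not among the 10. There Ezh2 (0.54) and Suz12 (0.46) had intervals above 0, and in mature B cells (-1.55 and -0.77) below it. The proliferation genes moved the same way in each class. In plasmacytoid dendritic cells they went from 1883 CPM in control to 2792 CPM in MYC cells, with 15 of 28 higher by 1.5-fold against 18.8% of genes. In mature B cells they went from 1861 to 685 CPM, with 22 of 25 lower against 27.8% of genes. Their part was not tested. Eed, the PRC2 subunit that reads the mark, had a log2 ratio of MYC to control of 0.38 in stem and multipotent progenitors (152 and 154 UMIs) and -1.35 in mature B cells (117 and 11 UMIs). Smarca4 was at 0.34 in mature neutrophils and 1.15 in late erythroid cells (19 and 16 UMIs), and at -0.85 in mature B cells. Smarcb1, the core SWI/SNF subunit, was at 0.49 in mature neutrophils and 0.21 in monocytes, and at -0.37 in early erythroid cells. Within the 3 mature neutrophil clusters its interval spanned 0 (0.29 on 79 and 108 UMIs, 0.78 on 50 and 9, and 2.43 on 1 and 74). Its control level in mature neutrophils, 7.82 CPM, overlapped the 7.41 CPM of late erythroid cells and was not told apart from background. Of the monocyte clusters 1 was at 0.49 (0.22 to 0.75) and another at 0.05 (-0.09 to 0.19). In late erythroid cells 40.5% of all genes were higher by 1.5-fold in the MYC library. Median depth there was 5569 UMIs in control and 1880 in MYC cells, and the part of depth in the Smarca4 value was not tested.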

How the results depend on the processing

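Of 55 alternative values for the 5 main results, 48 stayed within the range set for no change, 7 moved and 0 changed sign. The pooled B-lineage ratio of Ezh2 moved from -2.55 to -1.90 as a mean over cells, -2.08 with median-of-ratios scaling, -3.00 with free RNA taken off and -1.22 without B progenitors. That of Smarca4 moved from -2.51 to -2.09, -2.03 and, without B progenitors, -0.80. The count of members lower by 1.5-fold in the B lineage was 8, and 6 with that scaling. At the control's stage mix Ezh2 ranged from -0.64 to -0.18 and Smarca4 from -1.02 to -0.56. Of 1368 alternative values for single genes 1255 stayed within the counting interval of the reported value, 111 moved beyond it, and 81 of all changed sign, 21 of them with median-of-ratios scaling. In 79 of these the ratio itself was under 1.5-fold. The 2 past it were Ezh1 in B progenitors (0.035 with cells classified by markers alone) and Smarca4 in plasma cells (0.24 as a mean over cells). For these changes the cause was not tested, other than that the last pooled values use fewer cells. Leiden resolution 0.5 gave 135 of 147 results, and free RNA was subtracted in the classes where it could be estimated. No paired analysis was possible because each genotype has 1 library. No replicate could be left out for the same reason. Depth limits B progenitors, where 18 MYC cells gave 1 to 40 UMIs per member, and late erythroid cells, where 3 of 10 members reached 50 UMIs.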

Other observations

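Phf10 was the only 1 of 18 other SWI/SNF subunits past 1.5-fold in the upward direction in the pooled B lineage, and that value came from plasma cells. There it was at 14.0 CPM in the control library (71 UMIs in 52 of 253 cells) and 73.7 CPM in the MYC library (130 UMIs in 46 of 89 cells), a log2 ratio of 2.39 (1.97 to 2.83). The 10 richest cells held 25 of the 71 UMIs in control and 70 of the 130 in the MYC library, and the richest MYC cell 11. In mature B cells Phf10 was at -0.49, and in granulocyte progenitors at 0.62. Of 9 monocyte markers in plasma cells Ly6c2 was higher in the MYC library, 3040 against 333 CPM, while the other 8 summed to 89.6 against 151 CPM. The part of these differences in the Phf10 value was not tested.

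Of 1829 genes with enough UMIs in 10 classes, mature B cells and the 9 others, 17 were lower by 1.5-fold in at least 9. They held, besides Arid1a, the chromatin-related genes Msl2, a subunit of a histone acetyltransferase complex, and Phip, a bromodomain protein. They also held Jchain and Ighg2b, which plasma cells transcribe in bulk, the tripartite motif genes Trim56 and Trim12c, and Uba7, which activates the interferon-induced modifier ISG15. Both libraries carry the interferon-inducible Mx1Cre allele, and any inducing treatment is not given in the sources used here.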
